A study of Mus musculus with 6 samples.

Results

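Collagens are secreted proteins whose chains wind into triple helices and assemble outside the cell into fibrils, filaments and sheets. The corneal stroma owes its strength and transparency to regular fibrils of type I collagen that also contain type V collagen, while type IV collagen forms the basement membranes beneath the epithelium and within Descemet's membrane, and type VIII collagen the lattice of Descemet's membrane. The genes described here are the protein-coding mouse genes with a collagen chain symbol in GENCODE release M21 on the build GRCm38, other than Col17a1 and Col7a1, the collagens that anchor the epithelium. They number 42 of 55421 genes counted. The samples were corneas of mice aged 20 weeks, 3 libraries from animals heterozygous for a Pax6 mutation (M1 to M3) and 3 from wildtype animals (W1 to W3), which the series design calls biological replicates. Pax6 encodes a transcription factor of eye development, and people with a single working copy have aniridia with corneal disease. The labels name neither the mutant allele nor the strain, and they do not say whether corneas were pooled or which layers were kept.

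Total RNA was sequenced as read pairs, which gave 16858005 to 21846406 counts in genes per library. Levels below are CPM, counts relative to the gene total of a library after trimmed-mean (TMM) scaling, and a change is the log2 fold change of mutant over wildtype with its standard error. A gene was called when its edgeR quasi-likelihood p, adjusted by Benjamini-Hochberg over all 15209 genes tested, was 0.05 or less. Krt12, the keratin of the corneal epithelium, stood at 4139 to 7151 CPM in mutant and 15266 to 21749 CPM in wildtype libraries, and Pax6 had 452, 393 and 356 CPM in mutant, against 848, 745 and 771 CPM in wildtype libraries. M1 was the only library with female-type counts, with 1137 CPM of Xist against at most 0.680 CPM in any other library. W1 lay apart from the other libraries on the first principal component of all genes, which held 50% of the variance, at 122 against -67.2 to 23.2. Results are therefore also given without these libraries.

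By the edgeR test over all libraries, collagen genes of 4 classes rose in mutant corneas. Of the 42 genes, 36 had enough counts to be tested, 13 of them were called higher in mutant corneas, and none was called lower by edgeR, DESeq2 or limma-voom. At an unadjusted edgeR p under 0.05, 20 were higher and 0 lower, but the share of all tested genes at that threshold was not counted. At the adjusted threshold, 5.59% of all tested genes were called higher and 4.46% lower, 10.1% in either direction. The 13 were the type I chains Col1a1 and Col1a2, the type V chains Col5a1 and Col5a2, Col27a1, the fibril-associated Col12a1, Col14a1 and Col16a1, the type VI chains Col6a1, Col6a2 and Col6a3, and the type IV chains Col4a1 and Col4a2. Leaving out W1 gave 16 calls, among them all 13, leaving out M1 gave 7, and leaving out both gave 14. Without M2, W2 or W3 there were 3, 7 and 5 calls, and 10 without M3. Fold changes of the 13 ran from 2.96 for Col16a1 to 7.79 for Col1a1. The median log2 fold change of the 36 tested collagen genes was 1.57, beside 0.01 for all tested genes. Of the 36, 32 were above 0, beside 7719 of all 15209 tested genes. In 23 of the 36 all mutant libraries lay above all wildtype libraries, which held for 17.1% of all tested genes, and in none did all lie below, which held for 14.8%. In bulk corneal samples, a larger share of cells of a type and more RNA per cell cannot be told apart. A gene with low wildtype counts can pass the filter through its mutant counts, and 2 of the 36 averaged under 1 CPM in wildtype.

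**Figure D1:**
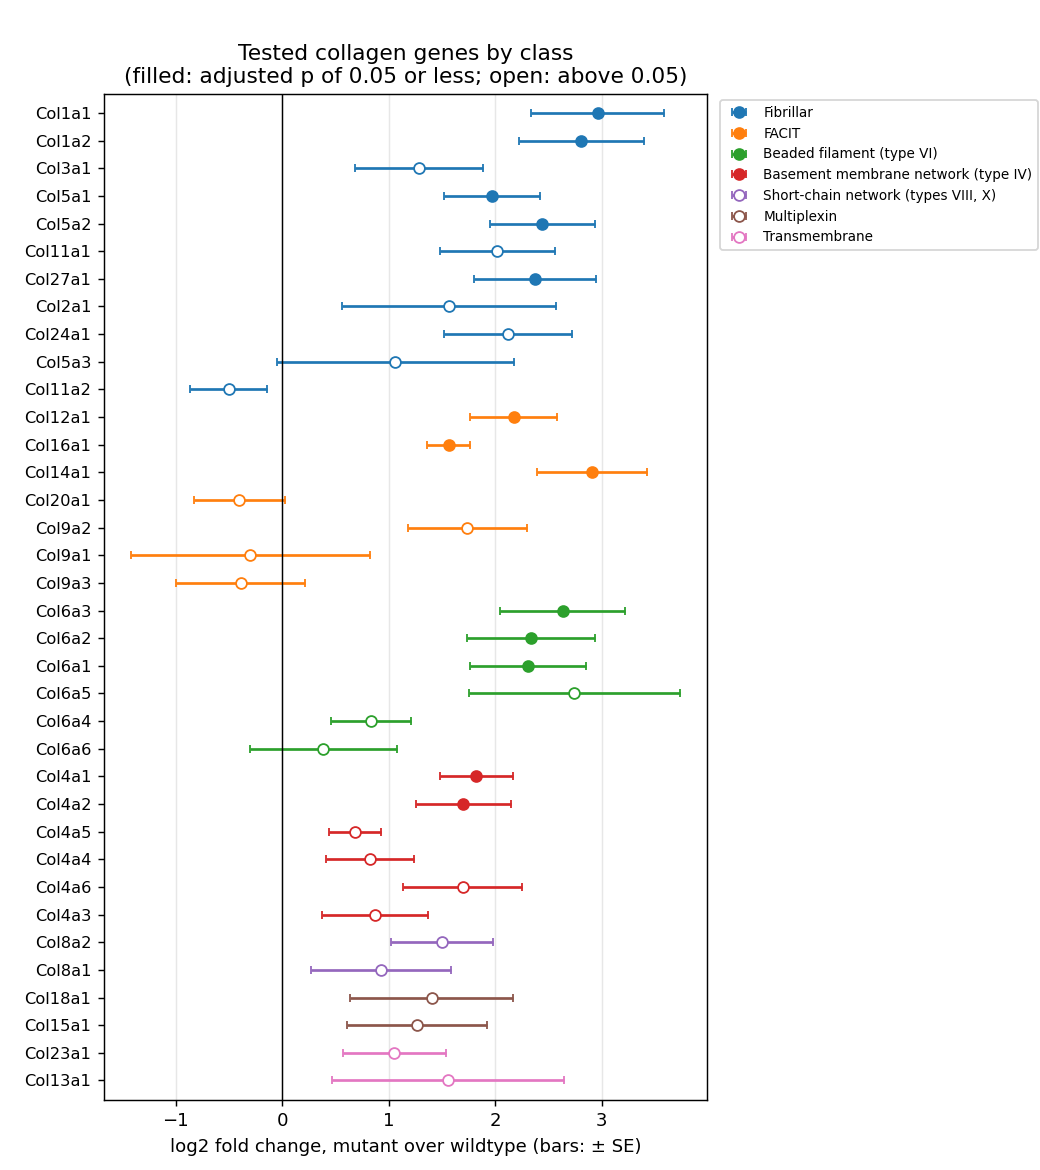
Log2 fold change of mutant over wildtype for the 36 tested collagen genes, coloured by class, with bars of ± SE; filled points have an adjusted p of 0.05 or less and open points one above it. Points of 32 genes lie right of 0, and the 13 filled points belong to the fibrillar, fibril-associated, type VI and type IV classes.

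Summed over the 42 genes, collagen RNA reached 6404, 2964 and 1811 CPM in mutant and 680.3, 943 and 728 CPM in wildtype libraries. The groups did not overlap, and the mean difference of the log2 sums was 2.07, a 4.19-fold higher level in mutant corneas. The exact two-sided permutation test gave p = 0.1, the smallest that 3 against 3 libraries allow. M1 held 3.54 times as much collagen RNA as M3, so the mutant libraries differed widely among themselves, while the wildtype libraries lay within 680.3 to 943 CPM. Of the collagen sum, the fibrillar class took 68.9, 59.7 and 41.2% in mutant and 51.6, 39.0 and 47.4% in wildtype libraries. Those shares overlapped, as did the shares of type IV collagen, at 5.27, 8.05 and 18.3% in mutant and 10.8, 19.7 and 15.2% in wildtype libraries. Per kilobase of merged exons, Col1a1 was the most abundant collagen RNA in both genotypes, at 208 CPM per kilobase in mutant and 26.7 in wildtype corneas. Col1a2 came next at 55.0 and 7.86 CPM per kilobase, over annotated exons of 12426 bases against 6563 for Col1a1. In wildtype Col8a2, Col12a1, Col18a1, Col23a1, Col16a1 and Col4a5 followed, between 5.95 and 4.63 CPM per kilobase, with neighbours in this order differing by less than the SD of their libraries.

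**Figure D2:**
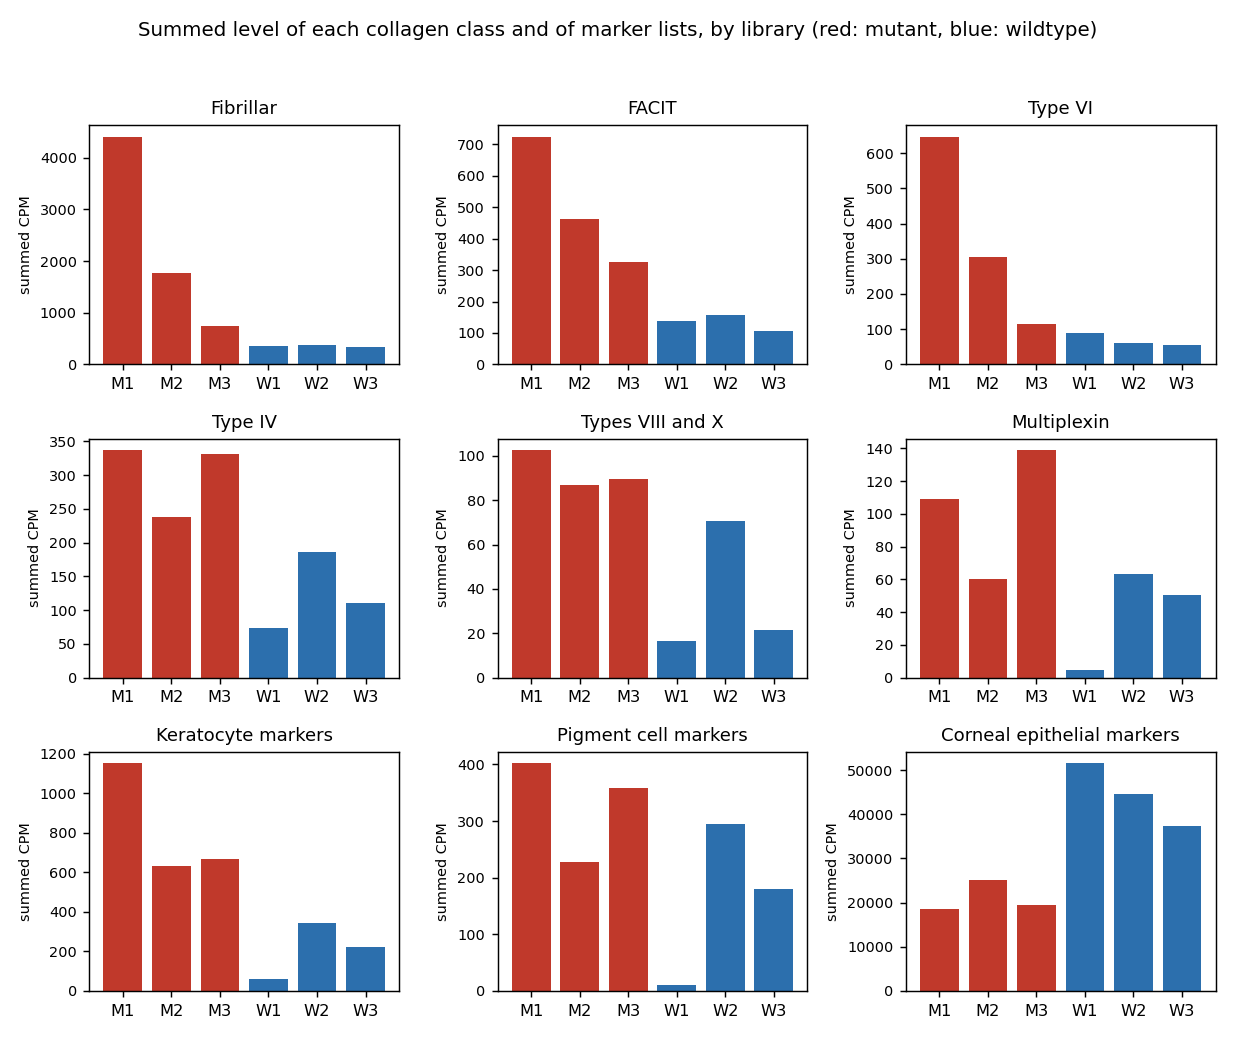
Summed CPM in each library for 6 collagen classes and for the marker lists of keratocytes, pigment cells and corneal epithelium, with mutant libraries M1 to M3 in red and wildtype libraries W1 to W3 in blue; each panel has its own scale from 0. The fibrillar, fibril-associated (FACIT) and type VI sums are highest in M1 and lowest in M3 among the mutant libraries, whereas the type IV sums of M1 and M3 are 337 and 331 CPM.

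Fibrillar collagens form the banded fibrils of connective tissue. Of the 11 genes of this class all were tested, 5 rose and none fell. Col1a1 (ENSMUSG00000001506, chromosome 11, 94936224 to 94953042, plus strand), the alpha1 chain of type I collagen, had 2696, 1012 and 383 CPM in the mutant libraries M1, M2 and M3, against 223, 138 and 164 CPM in the wildtype libraries W1, W2 and W3. Its mutant libraries all lay above the wildtype ones, but M1 held 7.05 times the level of M3. It averaged 1364 ± 1196 CPM in mutant and 175 ± 43.8 CPM in wildtype corneas (SD, n = 3 each), and its log2 fold change was 2.96 ± 0.63 (SE; adjusted p = 0.022). Col1a2 (ENSMUSG00000029661, chromosome 6, 4504814 to 4541544, plus strand), the partner chain, had 1315, 529 and 206 CPM in mutant, against 89.1, 121 and 82.9 CPM in wildtype libraries. The order of the mutant libraries was that of Col1a1, and the log2 fold change was 2.81 ± 0.59 (SE; adjusted p = 0.022). The ratio of Col1a1 to Col1a2 counts was 2.05, 1.91 and 1.86 in mutant and 2.51, 1.14 and 1.97 in wildtype libraries. These ratios overlapped between genotypes (exact permutation p = 0.9), with W1 the highest and W2 the lowest.

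Type V collagen starts fibril assembly and limits fibril width in the cornea. Col5a1 (ENSMUSG00000026837, chromosome 2, 27886425 to 28039514, plus strand) had 134, 56.2 and 38.3 CPM in mutant, against 14.7, 17.6 and 25.9 CPM in wildtype libraries, and its log2 fold change was 1.97 ± 0.45 (SE; adjusted p = 0.03). Col5a2 (ENSMUSG00000026042, chromosome 1, 45374321 to 45503282, minus strand) had 96.1, 46.4 and 21.5 CPM in mutant, against 7.82, 12.4 and 9.97 CPM in wildtype libraries, and rose by 2.44 ± 0.49 (SE; adjusted p = 0.019). Neither chain overlapped between genotypes, and both were highest in M1 and lowest in M3 among mutant libraries. The remaining chain, Col5a3, was low, with 8.55, 2.05 and 1.17 CPM in mutant, against 0.0567, 2.55 and 2.99 CPM in wildtype libraries, and overlapped. Col27a1 (ENSMUSG00000045672, chromosome 4, 63214004 to 63334991, plus strand), a minor fibrillar collagen best known from cartilage, had 15.6, 7.31 and 8.67 CPM in mutant, against 0.623, 2.83 and 2.61 CPM in wildtype libraries, a log2 fold change of 2.37 ± 0.58 (SE; adjusted p = 0.038). Annotated exons of Col5a1 overlap transcripts on the opposite strand, so its counts are uncertain where the counting ignored strand, which the sources used here do not state.

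Type III collagen, which joins type I fibrils in skin, vessels and healing tissue, was not called. Col3a1 had 111, 97.5 and 64.2 CPM in mutant, against 7.71, 61.9 and 42.2 CPM in wildtype libraries. All mutant libraries lay above all wildtype ones, W1 lay far below W2 and W3, and the log2 fold change was 1.28 ± 0.60 (SE; adjusted p = 0.24). Col3a1 and Col5a2 lie tail to tail on chromosome 1, 24614 bases apart, and the ratio of Col3a1 to Col1a1 counts was 0.0410, 0.0964 and 0.168 in mutant and 0.0345, 0.448 and 0.258 in wildtype libraries. Those ratios overlapped (exact permutation p = 0.6). Col11a1, the type XI chain of cartilage and of embryonic fibrils, had 14.1, 8.86 and 12.7 CPM in mutant, against 0.850, 4.20 and 3.73 CPM in wildtype libraries. Its groups did not overlap and its log2 fold change was 2.02 ± 0.54 (SE; adjusted p = 0.053). Col24a1, a minor fibrillar collagen, lay at 8.12, 2.77 and 2.70 CPM in mutant, against 0.680, 1.36 and 1.07 CPM in wildtype libraries, and its log2 fold change was 2.12 ± 0.60 (SE; adjusted p = 0.064). Col11a2 had 4.46, 3.82 and 2.61 CPM in mutant, against 5.72, 4.14 and 5.55 CPM in wildtype libraries, the one fibrillar gene with a negative log2 fold change, -0.50 ± 0.36 (SE; adjusted p = 0.46). Col2a1, the main collagen of cartilage, had 7.75, 3.43 and 5.75 CPM in mutant, against 0.0567, 1.19 and 4.43 CPM in wildtype libraries, and its libraries overlapped.

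With a single library left out, Col1a1 passed the threshold no longer without M2 (adjusted p = 0.055), W2 (0.088) or W3 (0.066), and Col1a2 without M2 (0.055), W2 (0.065) or W3 (0.067). The same held for Col5a1 without M1 (0.0505), M2 (0.061) or W2 (0.10), for Col5a2 without M2 (0.053), W2 (0.056) or W3 (0.056), and for Col27a1 without M1 (0.14), M2 (0.078), M3 (0.11), W2 (0.070) or W3 (0.068). Without W1 all 5 were called, and Col11a1 also was (0.013). Col11a1 was called with all libraries by DESeq2 (0.0017) and limma-voom (0.026) as well. The same held with a filter of 1 CPM in 3 libraries (0.0499) and without M1 and W1 together (0.039). It held too with no low-count filter (1.3e-05). That fit gave adjusted p far below the main ones for some genes, such as Col12a1 (6.4e-35 against 0.014). For others, such as P4ha1 (0.078 against 0.039), the values were larger. With limma-voom Col5a2 missed the threshold (0.054). No fibrillar gene of the 5 had a fold change below 0 in any of these fits.

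**Figure D3:**
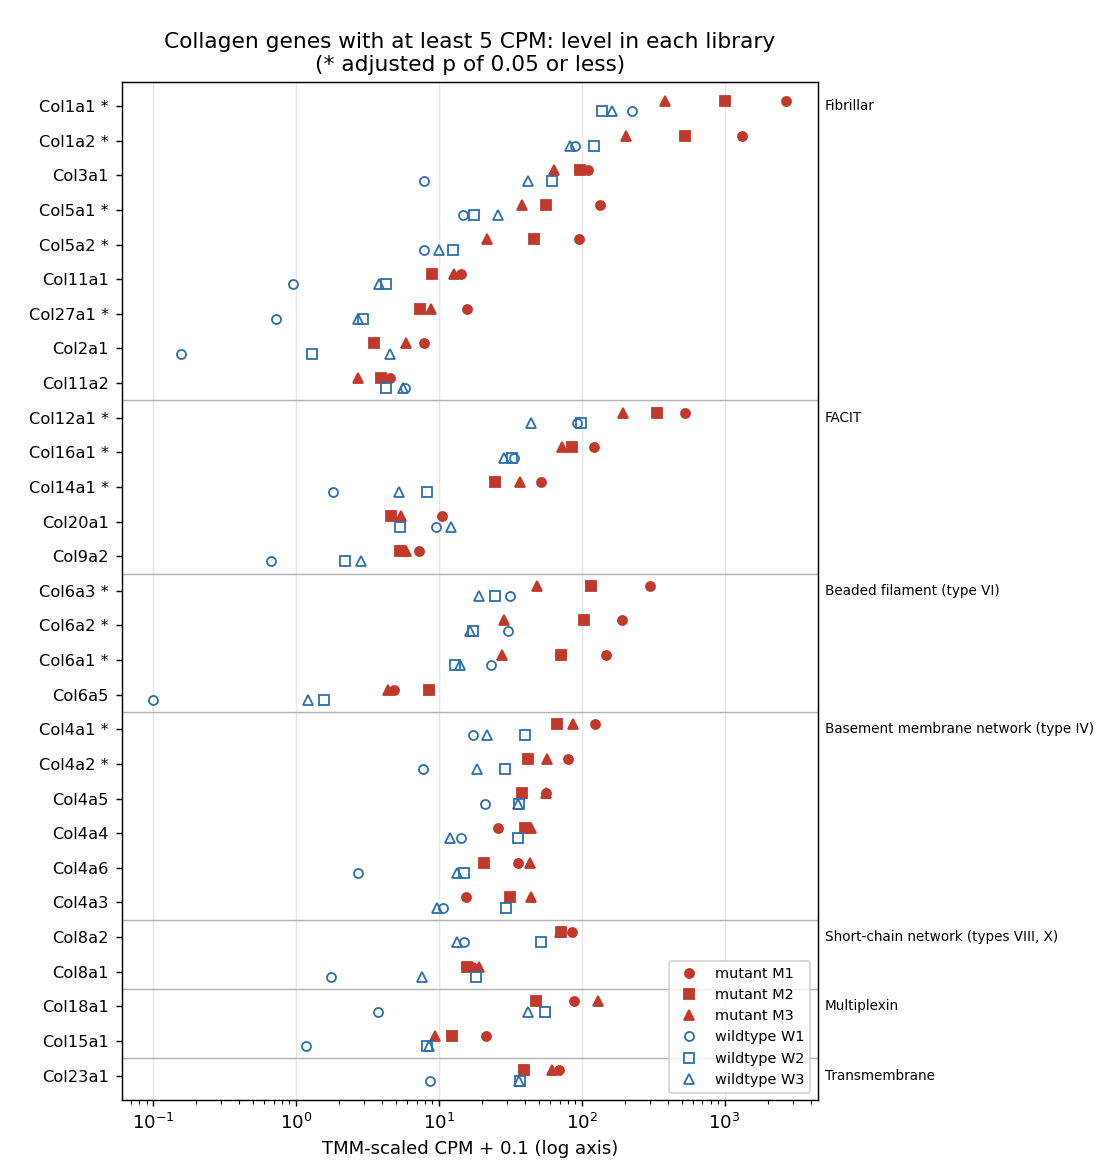
Level of the 29 tested collagen genes with a mean of at least 5 CPM in either genotype, as CPM plus 0.1 on a log axis, with mutant libraries as filled red and wildtype libraries as open blue symbols; an asterisk marks an adjusted p of 0.05 or less. Red and blue symbols are separated for most fibrillar and type VI genes, and W1 (open circles) lies lowest of all 6 libraries for 17 of the 29. The share of all tested genes with W1 lowest was not counted.

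The fibril-associated collagens with interrupted helices (FACIT) coat fibrils and link them to their surroundings. Of 9 genes 7 were tested, and 3 rose and none fell. Col12a1 (ENSMUSG00000032332, chromosome 9, 79598991 to 79718831, minus strand), which bridges type I fibrils, had 528, 338 and 194 CPM in mutant, against 91.9, 99.0 and 44.2 CPM in wildtype libraries, a log2 fold change of 2.17 ± 0.41 (SE; adjusted p = 0.014). Col14a1 (ENSMUSG00000022371, chromosome 15, 55307750 to 55520803, plus strand), a relative that binds the fibril surface, had 51.8, 24.7 and 36.8 CPM in mutant, against 1.70, 8.22 and 5.12 CPM in wildtype libraries. Its log2 fold change of 2.91 ± 0.52 (SE; adjusted p = 0.011) was 7.52-fold, and the lowest mutant library stood at 3.00 times the highest wildtype one. Col16a1 (ENSMUSG00000040690, chromosome 4, 130047840 to 130099283, plus strand), found near basement membranes and on fine fibrils, had 121, 85.0 and 72.1 CPM in mutant, against 33.2, 32.4 and 28.6 CPM in wildtype libraries. It had the smallest standard error among the called genes, rose by 1.56 ± 0.20 (SE; adjusted p = 0.0028), and had the smallest p of all collagen genes.

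The FACIT genes that were not called were low. Col9a2, a chain of type IX collagen of cartilage and vitreous, had 7.14, 5.26 and 5.80 CPM in mutant, against 0.567, 2.10 and 2.77 CPM in wildtype libraries. Its groups did not overlap, at a log2 fold change of 1.74 ± 0.56 (SE; adjusted p = 0.096). The other type IX chains gave -0.30 ± 1.12 for Col9a1 and -0.39 ± 0.61 for Col9a3 (log2 fold change ± SE). Col20a1 had 10.5, 4.54 and 5.35 CPM in mutant, against 9.52, 5.22 and 12.2 CPM in wildtype libraries, and its libraries overlapped. Col14a1 and Col16a1 were the only collagen genes called in each of the 6 fits that left out 1 library, and also under each of the 15 alternative settings. Col12a1 passed no longer without M2 (adjusted p = 0.0503).

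Type VI collagen forms beaded filaments between the fibrils and around cells, from alpha1, alpha2 and another chain that is usually alpha3. Of its 6 genes all were tested, 3 rose and none fell. Col6a1 (ENSMUSG00000001119, chromosome 10, 76708792 to 76726168, minus strand) had 147, 71.0 and 27.6 CPM in mutant, against 22.9, 12.9 and 13.9 CPM in wildtype libraries, a log2 fold change of 2.31 ± 0.54 (SE; adjusted p = 0.034). Col6a2 (ENSMUSG00000020241, chromosome 10, 76595762 to 76623630, minus strand) had 191, 104 and 28.7 CPM in mutant, against 30.3, 17.3 and 16.3 CPM in wildtype libraries, a log2 fold change of 2.34 ± 0.60 (SE; adjusted p = 0.046). Its genotypes overlapped, since M3 lay below W1. Col6a3 (ENSMUSG00000048126, chromosome 1, 90765923 to 90843971, minus strand) had 299, 116 and 48.5 CPM in mutant, against 31.2, 24.4 and 19.1 CPM in wildtype libraries, a log2 fold change of 2.63 ± 0.58 (SE; adjusted p = 0.027). These 3 chains stood 5.32 to 6.65 times higher in M1 than in M3, and W1 was the highest wildtype library for each. Col6a1 and Col6a2 lie on the same strand of chromosome 10, 85161 bases apart. The ratio of their counts was 0.770, 0.684 and 0.962 in mutant and 0.755, 0.742 and 0.850 in wildtype libraries and overlapped (exact permutation p = 0.8).

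The alternative chains Col6a4, Col6a5 and Col6a6 lie side by side on chromosome 9. Col6a5 had 4.76, 8.48 and 4.27 CPM in mutant, against 0, 1.47 and 1.12 CPM in wildtype libraries. Its groups did not overlap, and its log2 fold change was 2.74 ± 0.99 (SE; adjusted p = 0.13), against a wildtype mean of 0.865 CPM. Col6a4 and Col6a6 averaged 4.68 and 1.59 CPM in mutant and 2.63 and 1.21 CPM in wildtype corneas and were not called. The type VI calls were lost for Col6a1 without M1 (adjusted p = 0.090), M2 (0.088), W2 (0.11) or W3 (0.094), for Col6a2 without M1 (0.14), M2 (0.12), W2 (0.14) or W3 (0.12), and for Col6a3 without M2 (0.063), W2 (0.093) or W3 (0.080). With limma-voom Col6a1 (0.072) and Col6a2 (0.098) missed the threshold, and Col6a2 also did without M1 and W1 together (0.055). Without W1 all 3 were called, and Col6a5 also was (0.024). Col6a5 was called too by DESeq2, with no low-count filter, and without M1 and W1 together.

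Type IV collagen makes the sheet of basement membranes in 3 networks, built from alpha1 and alpha2, from alpha3, alpha4 and alpha5, and from alpha5 and alpha6. The 6 genes stand as 3 pairs, each head to head on opposite strands. Annotated starts of Col4a1 and Col4a2 lie 21 bases apart and their first exons share 22 bases, those of Col4a4 and Col4a3 lie 72 bases apart, and those of Col4a6 and Col4a5 lie 1309 bases apart. The sequences below run from 250 bases before to 50 bases after a start (RefSeq, GRCm38.p6), and are shown because partner chains start side by side. Capitals mark a CCAAT box (CCAAT or ATTGG) or a GC box (GGGCGG or CCGCCC), searched on both strands; the motifs do not overlap each other in these windows. The Col4a2 window, chr8:11312555-11312854 on the plus strand, also holds the start of Col4a1. The Col4a4 window, chr1:82586800-82587099 on the minus strand, also holds that of Col4a3. The Col4a5 window is chrX:141475169-141475468 on the plus strand and the Col4a6 window is chrX:141474027-141474326 on the minus strand.
Col4a2: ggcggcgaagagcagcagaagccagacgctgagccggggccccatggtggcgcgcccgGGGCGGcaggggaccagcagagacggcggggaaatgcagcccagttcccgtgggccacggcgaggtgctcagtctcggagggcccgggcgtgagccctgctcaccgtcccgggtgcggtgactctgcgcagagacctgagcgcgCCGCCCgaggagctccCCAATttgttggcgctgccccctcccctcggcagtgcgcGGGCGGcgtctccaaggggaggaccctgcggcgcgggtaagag
Col4a4: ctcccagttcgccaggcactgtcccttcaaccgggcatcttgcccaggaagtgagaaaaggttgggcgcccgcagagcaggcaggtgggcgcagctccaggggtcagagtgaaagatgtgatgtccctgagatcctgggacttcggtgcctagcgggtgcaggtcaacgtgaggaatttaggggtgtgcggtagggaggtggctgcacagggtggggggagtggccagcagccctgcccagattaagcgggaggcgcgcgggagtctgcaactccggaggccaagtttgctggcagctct
Col4a5: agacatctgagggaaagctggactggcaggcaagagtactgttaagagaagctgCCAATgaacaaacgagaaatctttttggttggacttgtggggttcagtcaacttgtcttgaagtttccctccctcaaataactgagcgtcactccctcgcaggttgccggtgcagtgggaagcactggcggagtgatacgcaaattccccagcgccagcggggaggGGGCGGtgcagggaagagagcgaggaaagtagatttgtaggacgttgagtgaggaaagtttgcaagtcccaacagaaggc
Col4a6: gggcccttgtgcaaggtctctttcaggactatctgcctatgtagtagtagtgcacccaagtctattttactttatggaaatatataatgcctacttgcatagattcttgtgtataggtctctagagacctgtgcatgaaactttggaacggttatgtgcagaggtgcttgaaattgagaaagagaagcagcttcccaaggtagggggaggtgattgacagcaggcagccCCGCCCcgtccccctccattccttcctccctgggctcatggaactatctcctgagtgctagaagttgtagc
The Col4a2 window held 1 CCAAT box and 3 GC boxes, the Col4a4 window neither, the Col4a5 window 1 of each and the Col4a6 window 1 GC box. Windows of 33 collagen genes were at hand, 36 in all. A GC box was present in 61.1% of them, beside 35.7% of all 32851 windows of this length, and a CCAAT box in 30.6%, beside 37.4%. The TATA box (TATAAA or TTTATA) was found in 11.1% and 13.6%.

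The alpha1 and alpha2 chains, widespread in basement membranes and found in those of vessels, rose, and the other 4 chains were not called. Col4a1 (ENSMUSG00000031502, chromosome 8, 11198423 to 11312826, minus strand) had 124, 66.7 and 86.8 CPM in mutant, against 17.2, 39.7 and 21.5 CPM in wildtype libraries, a log2 fold change of 1.82 ± 0.34 (SE; adjusted p = 0.014). Col4a2 (ENSMUSG00000031503, chromosome 8, 11312805 to 11449287, plus strand) had 79.7, 42.1 and 57.0 CPM in mutant, against 7.59, 29.0 and 18.4 CPM in wildtype libraries, a log2 fold change of 1.70 ± 0.44 (SE; adjusted p = 0.048). Neither overlapped between genotypes. The ratio of Col4a1 to Col4a2 counts was 1.56, 1.58 and 1.52 in mutant and 2.27, 1.37 and 1.17 in wildtype libraries. Col4a3 had 15.5, 31.3 and 44.0 CPM in mutant, against 10.7, 29.5 and 9.54 CPM in wildtype libraries, and Col4a4 had 25.9, 39.7 and 44.0 CPM in mutant, against 14.3, 35.9 and 11.9 CPM in wildtype libraries. In this pair M1 was the lowest mutant library and the genotypes overlapped, with log2 fold changes of 0.87 ± 0.50 (SE; adjusted p = 0.35) and 0.82 ± 0.41 (SE; adjusted p = 0.28). The sum of Col4a1 and Col4a2 over that of Col4a3 and Col4a4 was 4.93, 1.53 and 1.63 in mutant and 0.995, 1.05 and 1.86 in wildtype libraries. These ratios overlapped (exact permutation p = 0.3), so a difference between the pairs in their response to genotype was not shown.

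Col4a5, on the X chromosome, had 56.0, 37.9 and 55.9 CPM in mutant, against 21.0, 36.5 and 35.8 CPM in wildtype libraries, a log2 fold change of 0.68 ± 0.25 (SE; adjusted p = 0.13). Its neighbour Col4a6 had 35.8, 20.7 and 43.2 CPM in mutant, against 2.61, 14.8 and 13.4 CPM in wildtype libraries, a log2 fold change of 1.70 ± 0.56 (SE; adjusted p = 0.1). All mutant libraries lay above all wildtype ones for both, and W1 was the lowest. The ratio of Col4a6 to Col4a5 counts was 0.639, 0.546 and 0.773 in mutant and 0.124, 0.406 and 0.374 in wildtype libraries. It was 2.43-fold higher in mutant corneas with no overlap. The sum of Col4a1 and Col4a2 over that of Col4a5 and Col4a6 was 2.22, 1.85 and 1.45 in mutant and 1.05, 1.34 and 0.811 in wildtype libraries, also with no overlap. For both the exact permutation p was 0.1, the smallest possible, and 0.55 adjusted over the 11 ratios computed. The genotypes overlapped for the other 9. Without W1 the mutant mean of the Col4a6 to Col4a5 ratio, 0.653, stood beside 0.406 in W2 and 0.374 in W3. The calls were lost for Col4a1 without M1 (adjusted p = 0.052) or M3 (0.057) and for Col4a2 without M1 (0.16), M2 (0.082), M3 (0.14) or W3 (0.12), while Col4a6 was called without W1 (0.031) and Col4a4 without W2 (0.027). Col4a2 also missed the threshold with upper-quartile factors (0.053), with no composition factors (0.062) and without mitochondrial and structural RNA genes (0.0502).

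**Figure D4:**
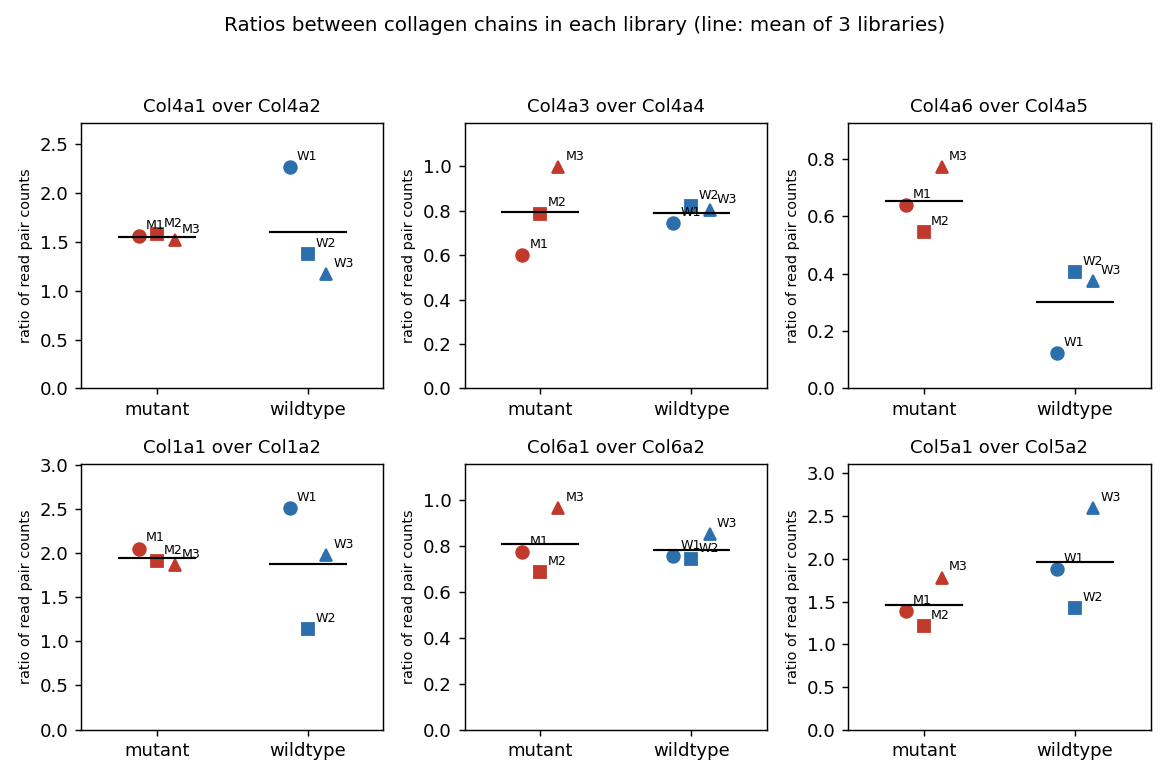
Ratio of read pair counts between chains of the same collagen type in each library, mutant left (red) and wildtype right (blue), with a line at the mean of 3 libraries. The Col4a6 to Col4a5 ratios are 0.546 to 0.773 in mutant and 0.124 to 0.406 in wildtype libraries, and the genotypes overlap or interleave for the other 5 ratios.

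Type VIII collagen is the hexagonal lattice of Descemet's membrane, made by the corneal endothelium. Col8a2 had 85.6, 71.0 and 70.7 CPM in mutant, against 14.96, 51.9 and 13.3 CPM in wildtype libraries. Its mutant libraries were close together and above all wildtype ones, at a log2 fold change of 1.504 ± 0.48 (SE; adjusted p = 0.092). Without W2 it was called (adjusted p = 0.0028), and with all libraries it was called by limma-voom and with no low-count filter. Col8a1 had 17.1, 15.7 and 19.0 CPM in mutant, against 1.64, 18.1 and 7.52 CPM in wildtype libraries, and W2 lay above M1 and M2. The endothelial markers Slc4a11, Cdh2, Alcam, Slc4a4 and Car3 summed to 208, 264 and 338 CPM in mutant and 183, 225 and 158 CPM in wildtype libraries. Alcam alone gave 127, 129 and 145 CPM of these sums in mutant and 139, 117 and 109 CPM in wildtype libraries, at a log2 fold change of 0.13. Slc4a4 lay higher in all mutant than in all wildtype libraries, at 1.36 ± 0.54 (SE; adjusted p = 0.17). None of these 5 markers was called, and none was at 0. All 5 had a log2 fold change above 0, with a median of 0.48.

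The multiplexins Col15a1 and Col18a1 belong to basement membrane zones, and the end of the Col18a1 protein is the vessel inhibitor endostatin. Neither was called. Col18a1 had 87.9, 48.0 and 129.7 CPM in mutant, against 3.63, 54.8 and 42.1 CPM in wildtype libraries, a log2 fold change of 1.40 ± 0.77 (SE; adjusted p = 0.32). Col15a1 had 21.2, 12.2 and 9.26 CPM in mutant, against 1.08, 8.22 and 8.37 CPM in wildtype libraries, a log2 fold change of 1.27 ± 0.66 (SE; adjusted p = 0.29). W1 was far below every other library for both. Of the collagens that span the cell membrane, Col23a1 had 68.8, 39.3 and 61.6 CPM in mutant, against 8.62, 36.9 and 36.3 CPM in wildtype libraries, again lowest in W1, and its log2 fold change was 1.05 ± 0.48 (SE; adjusted p = 0.23). Col13a1 averaged 2.27 CPM in mutant and 0.762 CPM in wildtype corneas. The 6 genes with too few counts to test were Col10a1, Col19a1, Col22a1, Col25a1, Col26a1 and Col28a1, with at most 1.87 CPM in any library. Col26a1 had no count in wildtype, where 3 counts over the group would be 0.0555 CPM, and 1 count in the mutant libraries together.

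The spread within each genotype differed between collagen genes. In mutant corneas, the called type I, type V and type VI chains were 3.48 to 7.05 times higher in M1 than in M3, whereas Col4a1, Col4a2 and Col14a1 were 1.40 to 1.43 times higher and Col4a3 reached 0.353 times its M3 level. The other called genes, Col16a1, Col27a1 and Col12a1, lay between these sets at 1.68, 1.79 and 2.72 times. Col5a3, low and not called, stood at 7.31 times. In wildtype corneas, W1 held 0.0749 times the mean of W2 and W3 for Col18a1 and 0.148 times for Col3a1, but 1.48 times for Col1a1 and 1.80 times for Col6a2. The partner chain Col1a2 stood at 0.874 times, Col5a1 at 0.678 times and Col5a2 at 0.701 times. Among collagen genes with at least 5 CPM, W1 was the lowest of all libraries for 11 of the 16 uncalled ones. For the 13 called ones it was the lowest for 6. Calls depend on these same values, so this contrast is no separate result. The share of all tested genes with W1 lowest was not counted. M1 was the highest of all libraries for all 13. These were called for high mutant levels, and the share of all tested genes with M1 highest was not counted. M1 was also the only library with female-type counts, so sex cannot be told apart from other differences in its ratios to M3.

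**Figure D5:**
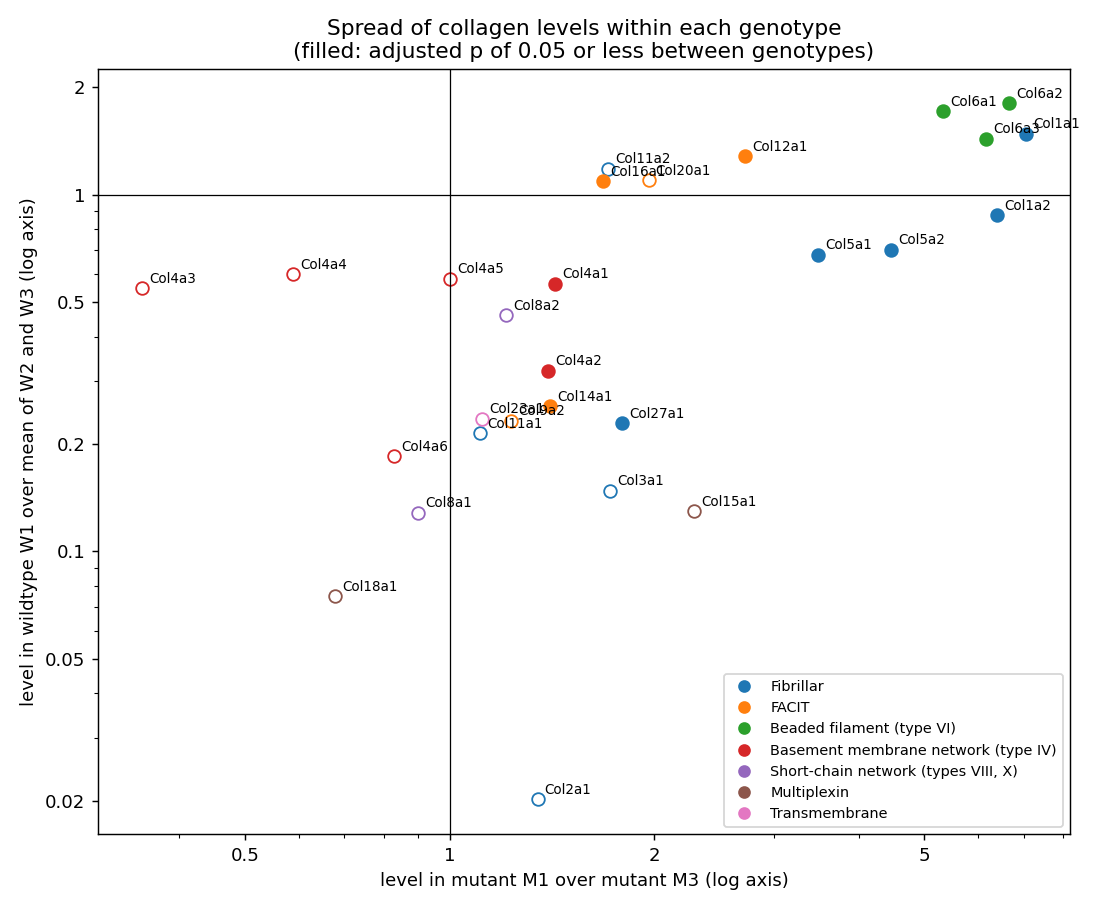
Level in M1 over M3 (horizontal) against level in W1 over the mean of W2 and W3 (vertical), both on log axes, for tested collagen genes with at least 5 CPM, coloured by class and filled where called between genotypes; Col6a5, at 0 in W1, is not drawn. The called type I, V and VI chains lie to the right, between 3.48 and 7.05 on the horizontal axis, and most uncalled genes lie below 1 on the vertical axis.

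Markers of keratocytes and leukocytes rose in part, and those of the corneal epithelium fell in part. Of 9 keratocyte genes other than collagens, 3 were called higher (Dcn, Fmod and Angptl7) and none lower, with a median log2 fold change of 2.32. Over all tested genes 5.59% were called higher and 4.46% lower. Angptl7 was called in each fit without 1 library, whereas calls were lost for Dcn without M1 (adjusted p = 0.10), M2 (0.088) or W3 (0.091) and for Fmod without M1 (0.071), M2 (0.056) or W3 (0.056). Kera and Lum were not called, at 2.47 ± 0.81 and 2.32 ± 0.70 (log2 fold change ± SE; adjusted p = 0.10 and 0.078), and their genotypes overlapped. The sum of the 9 was 1152, 635 and 669 CPM in mutant and 58.8, 345 and 224 CPM in wildtype libraries, and Ogn was at 0 in W1. Of these sums Ptgds, not called, gave 219, 136 and 360 CPM in mutant and 4.14, 170 and 124 CPM in wildtype libraries. Angptl7, a secreted protein of the corneal stroma, had 113, 55.1 and 21.9 CPM in mutant, against 8.56, 4.37 and 3.999 CPM in wildtype libraries, with the order of the mutant libraries seen for type I collagen. The summed collagen level divided by the summed keratocyte level was 5.56, 4.67 and 2.71 in mutant and 11.6, 2.73 and 3.25 in wildtype libraries. This ratio overlapped between genotypes, its mean log2 difference was -0.18 (exact permutation p = 0.8), and without W1 that difference was 0.47. Corneal epithelial markers summed to 18628, 25179.6 and 19444 CPM in mutant and 51568, 44669 and 37363 CPM in wildtype libraries. Of the 6, Krt12, Tkt and Pax6 were called lower and 1, Krt14, higher. Pax6 is the gene mutated in these animals, so its level is no measure of epithelial cells. The part of the cells with these markers in the collagen result was not tested.

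Pigment cell markers (Tyr, Dct, Tyrp1 and Pmel) summed to 402, 228 and 358 CPM in mutant and 9.81, 295 and 181 CPM in wildtype libraries, and vessel endothelial markers to 84.0, 35.2 and 33.1 CPM in mutant and 0.680, 23.5 and 31.7 CPM in wildtype libraries. Neither list had a called gene, and both were lowest in W1, where Cdh5 and Emcn were at 0. Leukocyte markers summed to 19.5, 24.6 and 23.3 CPM in mutant and 1.36, 2.21 and 2.40 CPM in wildtype libraries. Beside 5.59% of all tested genes, all 3 tested leukocyte markers of 4 were called higher. Of these, Ptprc and Laptm5 were called in each fit without 1 library, and Tyrobp, the lowest, was not without M1 (adjusted p = 0.13), M2 (0.12), M3 (0.11), W2 (0.091) or W3 (0.090), nor with limma-voom (0.068). In wildtype corneas Ptprc averaged 0.717 CPM and Tyrobp 0.0367 CPM. A gene as low in wildtype as Tyrobp can pass the filter only through its mutant counts. Sums of the scleral and conjunctival fibroblast list were 7.10 to 26.4 CPM in mutant and 0.850 to 16.8 CPM in wildtype libraries, with none of 4 called. Myofibroblast markers summed to 203 to 339 CPM in mutant and 273 to 351 CPM in wildtype libraries, with none of 4 called. Fn1 made up most of that sum at a log2 fold change of -0.52, the other 3 had values of 1.05 to 1.68, and the median of the 4 was 1.07. Pericyte and smooth muscle markers summed to 339.9 to 560.4 CPM in mutant and 574 to 634 CPM in wildtype libraries. Notch3 was the largest part of this sum in every library and was called lower (-1.12). The other 5 had positive log2 fold changes of 0.14 to 1.85 without being called, and the median of the 6 was 1.18. Lens and cartilage lists had 2 of 3 and 1 of 3 genes tested and none called, and no skeletal muscle gene had enough counts to test. Their sums were 1.71 to 22.5 CPM in mutant and 1.36 to 20.8 CPM in wildtype libraries for lens, 2.16 to 7.32 and 0 to 3.91 CPM for cartilage, and 0 to 0.855 and 0 to 7.73 CPM for muscle. Matn1 of cartilage was at 0 in every library, and Acan in all but M1. The part of these cells in the collagen result was not tested.

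Some genes that modify and fold collagen chains in the cell rose. Of 19 such genes 18 were tested, 5 rose and none fell, with a median log2 fold change of 0.65. Over all tested genes 5.59% were called higher and 4.46% lower. P4hb, the shared subunit of the prolyl hydroxylase that stabilizes the helix, had 385, 478 and 545 CPM in mutant, against 252, 259 and 205 CPM in wildtype libraries, a log2 fold change of 0.97 ± 0.16 (SE; adjusted p = 0.0092). P4ha1, its catalytic subunit, had 18.1, 17.1 and 17.6 CPM in mutant, against 11.9, 10.2 and 9.76 CPM in wildtype libraries, and rose by 0.73 ± 0.18 (SE; adjusted p = 0.039). P3h3 and P3h1, of the prolyl 3-hydroxylase family, rose by 1.63 ± 0.33 (SE; adjusted p = 0.02) and 1.51 ± 0.40 (SE; adjusted p = 0.0498). Fkbp10, a chaperone of procollagen, rose by 1.13 ± 0.29 (SE; adjusted p = 0.046), and Serpinh1, the collagen chaperone HSP47, had 68.7, 39.0 and 32.1 CPM in mutant, against 17.1, 29.1 and 26.1 CPM in wildtype libraries without being called, at 0.95 ± 0.31 (SE; adjusted p = 0.1).

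Without 1 library, the call of P4hb was lost without M3 (adjusted p = 0.057) and that of P3h3 without M1 (0.067), W2 (0.067) or W3 (0.055). The call of P4ha1 was lost without M1 (0.12), M2 (0.12), M3 (0.15), W2 (0.10) or W3 (0.13), and those of Fkbp10 and P3h1 in each of the 6 fits (0.058 to 0.16 and 0.069 to 0.19). Fkbp10 also missed the threshold with upper-quartile (0.052) or no composition factors (0.053), and P3h1 with limma-voom (0.062), among others. With no low-count filter P4ha1 (0.078) and Fkbp10 (0.12) were not called, nor were P4ha1 (0.064), Fkbp10 (0.12) and P3h1 (0.17) without M1 and W1 together. Fkbp10 shares exon sequence with a gene on the opposite strand.

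Of 13 genes that trim procollagen or crosslink fibrils outside the cell, 11 were tested, and 4 rose and none fell. Over all tested genes 5.59% were called higher and 4.46% lower. Lox, the lysyl oxidase that starts crosslinking, had 15.4, 9.03 and 6.97 CPM in mutant, against 1.13, 1.36 and 1.97 CPM in wildtype libraries. Its lowest mutant library stood at 3.53 times its highest wildtype one, and its log2 fold change was 2.80 ± 0.42 (SE; adjusted p = 0.0058). It was called in each fit that left out 1 library. Pcolce, an enhancer of procollagen cleavage, rose by 0.88 ± 0.17 (SE; adjusted p = 0.015), and lost its call without M1 (0.060), M3 (0.059) or W3 (0.061). Adamts2, the protease that removes the amino end of fibrillar procollagens, rose by 2.34 ± 0.58 (SE; adjusted p = 0.041). Like type I collagen it was highest in M1 and lowest in M3, with 39.5, 16.2 and 6.70 CPM in mutant, against 4.02, 4.99 and 3.31 CPM in wildtype libraries. Its call held only without M3 among the fits that left out a library (0.059 to 0.12 in the others), and it was not called with limma-voom (0.17). Bmp1, which removes the carboxyl end, rose by 0.68 ± 0.17 (SE; adjusted p = 0.043), and was called only without W1 (0.094 to 0.14 in the others), and not with upper-quartile factors (0.0503) or no low-count filter (0.061). Without M1 and W1 together, Adamts2 (0.11) and Bmp1 (0.090) were not called. Exons of Lox and Pcolce overlap other annotated genes, so their counts are uncertain. The overlap covers 30 of 4778 exon bases for Lox, and 112 of 3823 with each overlapping gene for Pcolce.

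Receptors for collagen moved in both directions. Of 10 genes 8 were tested, 2 rose and 2 fell, and Gp6 had no count in any library. Over all tested genes 5.59% were called higher and 4.46% lower. Ddr1, the discoidin receptor of epithelia, had 167, 144 and 138 CPM in mutant, against 284, 241 and 252 CPM in wildtype libraries, a log2 fold change of -0.79 ± 0.13 (SE; adjusted p = 0.008), and was called in each fit without 1 library. Ddr2, its relative in mesenchymal cells, had 36.2, 25.4 and 21.3 CPM in mutant, against 4.25, 13.4 and 7.57 CPM in wildtype libraries, a log2 fold change of 1.71 ± 0.40 (SE; adjusted p = 0.033). Itga2, the integrin chain that binds collagen on epithelial cells, had 8.36, 11.8 and 5.35 CPM in mutant, against 19.9, 22.5 and 18.8 CPM in wildtype libraries, a log2 fold change of -1.26 ± 0.29 (SE; adjusted p = 0.031). Itga11, the collagen-binding integrin chain of fibroblasts, had 13.2, 5.48 and 2.61 CPM in mutant, against 1.13, 0.907 and 1.17 CPM in wildtype libraries, a log2 fold change of 2.72 ± 0.62 (SE; adjusted p = 0.03). For all 4 the genotypes did not overlap, beside 17.1% of all tested genes with all mutant libraries above and 14.8% with all below. Calls were lost for Ddr2 without M1 (0.12), M2 (0.093), M3 (0.082) or W3 (0.096), for Itga2 without M1 (0.10), M3 (0.084), W2 (0.094) or W3 (0.061), and for Itga11 without M1 (0.12), M2 (0.073), W2 (0.098) or W3 (0.073), all as adjusted p. Without M1 and W1 together, Ddr2 (0.055), Itga2 (0.072) and Itga11 (0.084) were not called, and Itga11 was not with limma-voom (0.17). Exons of Ddr1 and Ddr2 overlap antisense transcripts.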

How the data were processed

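RNA of 6 corneal libraries was sequenced as stranded paired reads of total RNA, per the labels' protocols. The deposited files hold raw counts per Ensembl gene, 1 file per library, which the authors made with Trim Galore, HISAT2, SAMtools and HTSeq on GRCm38, per the submitters' processing notes. No source used here gives versions, settings or the strand option. The 5 summary lines, among them 28.2% to 31.7% of the total as not aligned, were left out of library sizes. Symbols, positions and exons came from GENCODE M21, in which 55240 of 55421 IDs matched.

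The test used edgeR 4.0.16 in R 4.3.3: filterByExpr (minimum count 10, minimum total 15), TMM, and a quasi-likelihood test of genotype over 15209 genes with Benjamini-Hochberg adjustment at 0.05. Sums and ratios per library were compared by an exact two-sided permutation test. The series design calls the libraries biological replicates without naming separate animals, and p-values measure only the spread between these libraries, which may be technical. Alternatives used limma 3.58.1, DESeq2 1.42.0, other scalings and filters, and left out libraries. The scripts were tested on simulated data. Collagen genes past the threshold or with a mean of at least 5 CPM are described one by one, and related lists by up to 4 genes with the smallest p in each direction. Other collagen genes given singly, P3h1 and Serpinh1 lie outside this rule, their values being known when they were picked. One marker list is not reported here. The members and lists were chosen with earlier results of these data known. Counting error limits genes under 5 CPM, and intervals for it are not given. Annotated exons of 12 collagen genes, 3 of them called (Col5a1, Col4a1 and Col4a2), overlap other genes.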

Additional observations from a re-analysis of the deposited data

How the results depend on the processing

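The count of collagen genes called higher, 13, was 12 to 18 under DESeq2, limma-voom, scaling by RLE, by upper quartile or by library size alone, a filter of 1 CPM in 3 libraries and removal of mitochondrial and structural RNA genes, and 14 without M1 and W1 together. It was 28 with no low-count filter and 3 to 16 with 1 library left out (7 without M1, 3 without M2, 7 without W2, 5 without W3), and none was called lower in any of the 15 settings. All 13 had a log2 fold change above 0 in every setting. DESeq2 kept the 13 and added Col11a1, Col24a1, Col4a6, Col6a5 and Col9a2. With limma-voom Col11a1 and Col8a2 were added, and Col5a2, Col6a1 and Col6a2 were lost. Over all genes, 850 higher and 679 lower calls became 1325 and 1033 with DESeq2, 1588 and 1137 with no low-count filter, and 340 to 1227 and 271 to 847 with 1 library left out. The cause of these changes was not tested; fits without a library have fewer samples. The log2 difference of the collagen sum, 2.07, was 1.58 to 2.49, and that of its ratio to keratocyte markers, -0.18, was -0.57 to 0.47 with 1 library left out and -0.35 without Ptgds, an alternative chosen after seeing the data. Log2 fold changes of 4 uncalled genes turned round: Col5a3 without M1 (-0.21; range with 1 library left out -0.21 to 1.54) and without M1 and W1 (-0.80), Col6a6 without W1 (-0.034; -0.034 to 0.66) and without M1 and W1 (-0.31), Col9a1 with limma-voom (0.96) and without M2 (0.036) or W2 (0.43; -1.25 to 0.43), and Col9a3 without W3 (0.27; -0.78 to 0.27). No paired analysis was possible because the labels give no replicate numbers: those used here follow accession order and pair no libraries. Depth limits genes under 5 CPM in both genotypes.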
